A study of Danio rerio with 20 samples.

Results

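Livers of unexposed as3mt mutant zebrafish larvae were compared with livers of unexposed wild-type larvae, 5 days after fertilization. The libraries were chosen by their labels alone, as mutant or wild type and as given no inorganic arsenic (iAs): 10 of the 20 libraries of the series, 5 from each line, with all 32105 gene identifiers counted in them. The mutants (as3mt-/-) lack 8 bp of the gene's exon 3, removed with CRISPR, so that every cell of the body carries a premature stop codon, and were spawned naturally by F2 homozygous parents in the WT-ABNYU background. The wild-type larvae were WT-TAB5. The deletion and the strain background therefore changed together and cannot be told apart, and each difference given here is one between lines. Each library held a pool of 12 to 15 dissected livers. No source used here says whether pools came from separate clutches, so p-values measure only the spread between pools, which may be technical. The other 10 libraries came from the same lines kept in 1 mM iAs from 96 to 120 hours after fertilization. They were part of the main fit of 20 libraries, so they also shaped the choice of tested genes, the scaling and the estimate of spread. Apart from that, they serve to show whether a difference between the unexposed lines was also present in other pools.

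As3mt is the arsenic methyltransferase. It uses S-adenosylmethionine as methyl donor to turn inorganic arsenic into methylated forms that are excreted, and the liver is a main site of this reaction. Without arsenic the enzyme has no well-known substrate, so unexposed livers show the baseline on which an exposure acts. At this age the larval liver is made mostly of hepatocytes, which secrete plasma proteins and carry out drug, bile acid and lipid metabolism, next to biliary, endothelial, stellate and blood cells. It lies against the exocrine pancreas and the gut. In RNA from such pools, fewer cells of a type and less RNA per cell cannot be told apart.

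The 5 wild-type libraries held 28288786 to 39645961 counts and the 5 mutant libraries 27505029 to 41248978. Levels are given in CPM, counts scaled to a common library size after TMM normalization. Differences are log2(mutant/wild type) with a standard error (SE), and a gene is called at an adjusted p under 0.05 in edgeR's quasi-likelihood test over 16389 genes. Hepatocyte markers summed to between 287764 and 309267 CPM in the wild-type pools and between 236273 and 272295 CPM in the mutant pools, with none of the 14 at 0. Of the 14, 2 were called lower (median -0.19, or -0.01 with library sizes taken as total counts). Exocrine pancreas markers, mostly genes for digestive enzymes, were far less abundant but uneven. They summed to 36.8 to 245.8 CPM in wild-type pools and 123.8 to 1614.2 CPM in mutant pools. Their median difference was 2.72, and 2 of the 21 tested were called higher (7 by DESeq2). Only 1 of the 21 had a difference below 0. PTF1A, the transcription factor that defines exocrine cells, was at 0 in all 10 libraries. With the enzyme transcripts themselves this scarce, that 0 does not show whether exocrine cells were in the pools. With their mean log2 level as a covariate in the fit (the pancreas covariate), which itself differs between the lines, 947 genes were called, 924 of them among the 2265 called without it, and none of these turned direction. For most named differences that lost their call in that fit, the text says so.

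Wild-type pool 2 stood apart from the other wild-type pools. On the first principal component of the 10 libraries, which carried 38.5% of the variance, it lay at -9.5, between the other wild-type pools at -61.2 to -48.4 and the mutant pools at 40 to 53.3. When it was left out 2802 genes were called, and 2763 of them were used to place it. It was nearer to the mutant mean for 49.6% of these. The other wild-type pools, treated in the same way, gave 8.2% to 29.9%, of which pool 4 was the highest. Its as3mt level was the highest of the wild-type pools. Without it, 15 of the 21 exocrine pancreas markers were called higher in the mutants, and 6 were without mutant pool 3. Wild-type pool 1 had the highest levels of the endoplasmic reticulum (ER) stress genes, and results that rest on it are given with and without it.

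**Figure D1:**
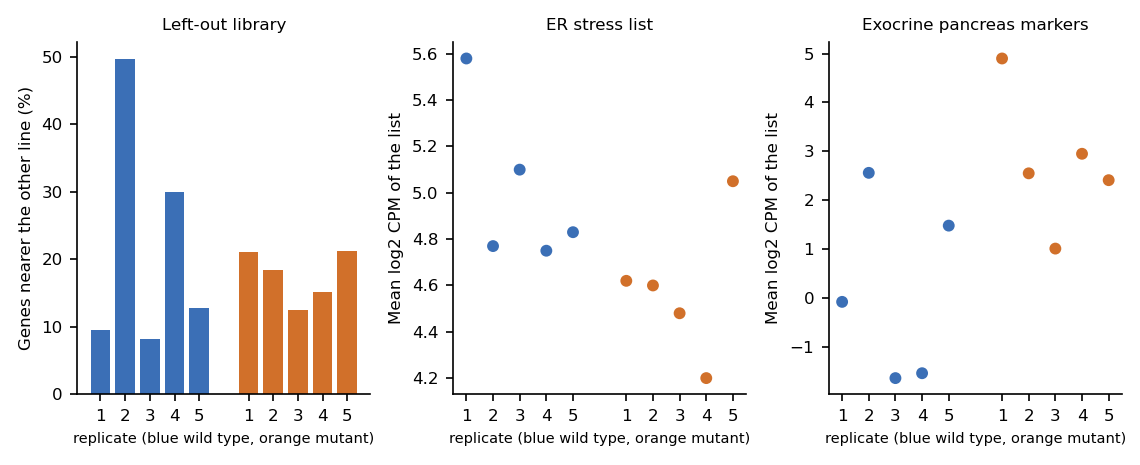
Each bar or point is 1 unexposed pool, wild type in blue and mutant in orange. The left panel plots the percent of genes, called when that pool was left out, for which the pool was nearer to the other line; the middle and right panels plot the mean log2 CPM of the ER stress list and of the exocrine pancreas markers. Wild-type pool 2 lies at 49.6% in the left panel and wild-type pool 1 is highest in the middle panel, at 5.58.

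The transcript of as3mt itself was lower in the mutants but far from absent. It was at 119.5, 134.1, 120.8, 119.2 and 131.1 CPM in wild-type pools 1 to 5 and at 80.9, 61.8, 81.1, 63.8 and 75.7 CPM in mutant pools 1 to 5. Every mutant pool lay below every wild-type pool. The mean was 124.9 ± 7.09 CPM in the wild type and 72.7 ± 9.30 in the mutants (SD, n = 5), a log2 difference of -0.78 (SE 0.22, adjusted p = 0.0213) and an exact 2-sided permutation p of 0.00794, the smallest that 5 against 5 can give. The call was lost without mutant pool 2 (-0.73, adjusted p = 0.0525), without mutant pool 4 (-0.74, 0.0536) and with the pancreas covariate (-0.70, 0.118). The deletion leaves most of the transcript countable, so the level alone does not show whether a pool carries it. In the exposed pools the gap was -1.81 (adjusted p = 9.34e-06), and the 2 gaps did not pass the test of their difference (-1.03, adjusted p = 0.0679).

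Genes beside an edited site tend to be inherited with it, so the genes around as3mt were counted by their order along the chromosome. Of the 25 genes on each side, 22 were tested and 9 were called (40.9%), 5 higher and 4 lower in the mutants, where 13.8% of all tested genes were called. Among the genes 26 to 50 places away, 3 of 18 were called (16.7%). The share depended on single pools: it was 22.7% without each of mutant pools 1, 2, 4 and 5 and of wild-type pools 3 and 5, 27.3% without wild-type pool 4, and 13.6% with the pancreas covariate. The 13.8% over all genes belongs to the main fit, with 2265 calls. The covariate fit called 947 of the same 16389 genes, and the fits at 22.7% called 1651 to 2090 genes. The share over all genes was therefore lower in the covariate fit than 13.8%, and its 13.6% cannot be set against that value. The calls of 3 neighbours held in every fit. nlgn4xa, a neuroligin of synaptic contacts found 13 places away, was at 0.183, 0.818, 0.379, 0.444 and 0.246 CPM in wild-type pools 1 to 5 and at 7.33, 10.2, 6.33, 7.50 and 10.5 CPM in mutant pools 1 to 5. The lines did not overlap, and the mutants were 20.5-fold higher (4.36, SE 0.61, adjusted p = 8.05e-05), with 2.71 in the exposed pools (adjusted p = 0.000837). METAP1D, a mitochondrial methionine aminopeptidase 17 places away on the other side, was at 4.49 ± 0.438 CPM against 7.6 ± 1.17 (0.76, SE 0.12, adjusted p = 0.000235) and differed by 0.77 in the exposed pools. gyg2, a glycogenin that primes glycogen chains, was at 3.74 ± 1.92 against 10.8 ± 3.81 CPM (1.54, SE 0.31, adjusted p = 0.00217), with 0.48 in the exposed pools (adjusted p = 0.258).

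**Figure D2:**
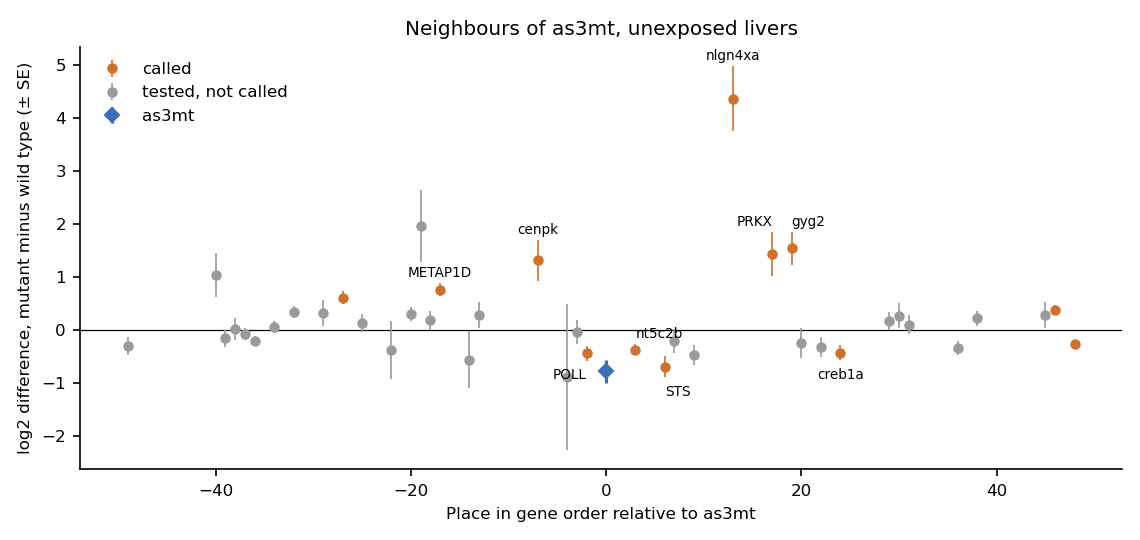
Log2 difference between the unexposed lines (vertical axis, bars ± SE) for each tested gene within 50 places of as3mt, by its place in the gene order (horizontal axis, in genes). Called genes are marked; nlgn4xa stands highest at 4.36 and as3mt at -0.78.

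Over the whole transcriptome 2265 of 16389 genes differed between the unexposed lines (13.8%), 968 higher (5.91%) and 1297 lower (7.91%) in the mutants. Of these, 973 differed by at least 1 on the log2 scale and 383 by at least 2. The median difference over all tested genes was 0.004. For 1402 of the called genes the 5 and 5 pools did not overlap, as for 1731 of all tested genes (10.6%). Without wild-type pool 2 there were 1263 higher and 1539 lower calls, and 2105 of the 2265 were among them. A fit of the 10 unexposed libraries alone made 1758 calls, 853 higher and 905 lower. Of the 2265 genes, 1513 (66.8%) were among those. The balance between higher and lower depended on scaling. With library sizes taken as total counts, 1917 genes (11.7% of those tested) were higher and 669 (4.08%) lower, so that 74.1% of the calls were higher in the mutants against 42.7% with TMM, and the median of all genes moved to 0.175.

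Most of the differences had the same direction in the exposed pools, and fewer were called there. Those pools are other libraries, but they were part of the main fit and shaped its choice of genes, scaling and estimate of spread. Of the 2265 genes, 1952 (86.2%) had the same direction in the exposed pools. The same share over all tested genes is not given here, so the 86.2% has no background to be set against. Of the 2265, 1086 (47.9%) were called in the same direction and 31 in the opposite direction. Of all tested genes, 3369 (20.6%) were called between the exposed lines. For 651 genes the lines did not overlap in either set of pools, in the same direction. The size of the difference changed with exposure for 220 of the 2265 (9.71%; 3.98% of all tested genes), of which 175 were smaller or opposite in the exposed pools and 45 larger. DESeq2 called 415. The 2265 genes were chosen by their unexposed difference and this test uses the same unexposed pools, so the share and the split are given as a description.

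**Figure D3:**
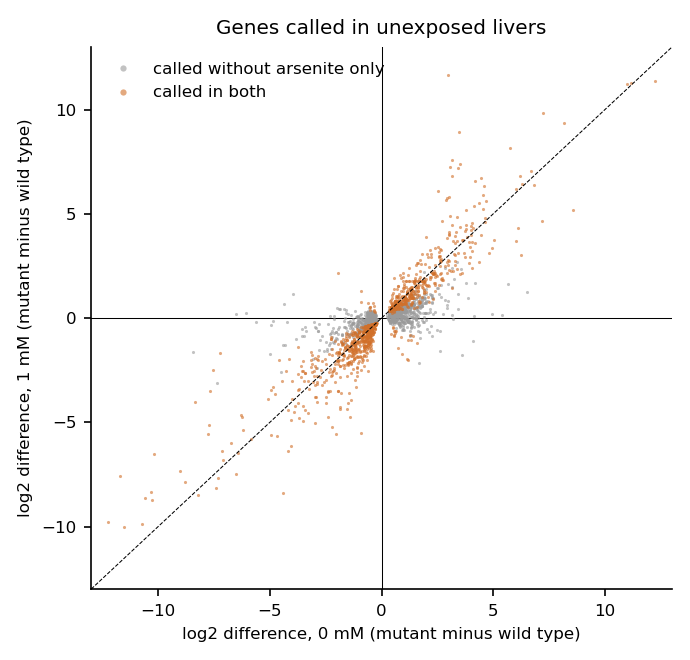
Each point is a gene called between the unexposed lines, with its log2 difference in unexposed pools on the horizontal axis and in exposed pools on the vertical axis. Genes in orange were called in both; 1952 of 2265 points have the same sign on both axes.

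Some genes were near silent in 1 of the lines. The rule was under 0.3 CPM in all 5 pools of a line and at least 3 CPM in all 5 of the other. By it, 10 genes were near silent in the mutants and 3 in the wild type, 13 in all. The number was 20 without wild-type pool 2, and 3 with limits of under 1 and at least 10 CPM. With exposure, the silent line held at most 0.123 CPM of each of the 13, while the other line was below 3 CPM in at least 1 pool for 7 of them. fkbp16, of the FK506-binding family of prolyl isomerases, was at 89.7, 58.5, 144.3, 139.7 and 32.6 CPM in wild-type pools 1 to 5, and the 5 mutant pools held 10 counts of it in all. That is a 1306.8-fold difference with a counting interval of 710.3 to 2725.8 (95%, counting error only). ifi27.5, of the family of interferon-inducible proteins of 27 kDa, was at 42.7, 21.3, 28.2, 22.6 and 39.6 CPM in wild-type pools 1 to 5, while 1 count was found in the mutants, in pool 4 (4371.5-fold, interval 784.1 to 172711.7). STK24 (ENSDARG00000100955), a Ste20-type kinase, was at 11.8 ± 5.38 CPM in the wild type and 0.102 ± 0.0948 in the mutants, 109.3-fold apart (66.0 to 195.8). CCDC134 (ENSDARG00000103285), a secreted coiled-coil protein, was at 9.38 ± 1.66 against 0.0277 ± 0.0270 CPM (331.7-fold, 129.2 to 1219.3) and had the smallest adjusted p of all genes (3.71e-13). itln2, an intelectin that binds microbial sugars, was 61.1-fold higher in the wild type (35.5 to 115.2).

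Other genes of this kind had no count at all in a line, so only a lower bound can be given, set against a floor of 3 counts over the 5 pools. si:dkeyp-1h4.8 was at 6.71 to 29.7 CPM in the wild type and at least 810.1-fold lower in the mutants, si:ch211-214j24.15 at least 546.3-fold lower and zgc:194221 at least 276.4-fold lower. vwa7, which carries a von Willebrand factor A domain, was just under the level set by the rule in 1 pool, at 4.93, 2.69, 5.46, 5.16 and 3.55 CPM in wild-type pools 1 to 5, and at 0 in every mutant pool (at least 205.6-fold). In the other direction, GGACT (ENSDARG00000038248), a gamma-glutamylamine cyclotransferase, was at 9.78, 6.53, 7.57, 5.95 and 9.31 CPM in mutant pools 1 to 5 and at 0 in every wild-type pool (at least 314.0-fold). The identifiers ENSDARG00000070516 and ENSDARG00000070506, which have no symbol, were at least 688.1-fold and at least 288.8-fold higher in the mutants. Whether such genes were transcribed differently or their reads were counted differently in the lines was not tested.

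Among genes with a mean above 10 CPM in the wild type, zgc:161973, VDAC1 and pemt were 7.36-fold, 7.74-fold and 6.27-fold lower in the mutants. zgc:161973 was at 207.1, 196.8, 185.8, 180.4 and 186 CPM in wild-type pools 1 to 5 and at 30.1, 28.6, 25.9, 22.3 and 23.1 in mutant pools 1 to 5. The lines lay far apart with little spread in either, at -2.88 (SE 0.15, adjusted p = 1.88e-10), and at -2.76 in the exposed pools. VDAC1, the voltage-dependent channel of the outer mitochondrial membrane, was at 45, 24.1, 63.1, 55.6 and 51.7 CPM in wild-type pools 1 to 5 and at 5.44, 5.27, 6.62, 5.57 and 8.03 CPM in mutant pools 1 to 5. No mutant pool reached the lowest wild-type pool (-2.95, SE 0.22, adjusted p = 3.22e-08) and the exposed pools differed by -2.40. Of its paralogs, VDAC3 was lower by less (-0.42, SE 0.08, adjusted p = 0.000906) and VDAC2 was not called (-0.19, SE 0.10, adjusted p = 0.208). pemt, which methylates phosphatidylethanolamine to phosphatidylcholine with S-adenosylmethionine as methyl donor, was at 14.4, 8.70, 16.4, 19.8 and 11.2 CPM in wild-type pools 1 to 5 and at 2.08, 1.26, 3.02, 2.27 and 2.60 CPM in mutant pools 1 to 5. These lines did not overlap either (-2.65, SE 0.27, adjusted p = 1.94e-06), and the exposed pools differed by -2.05.

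MTSS2 (ENSDARG00000028943), which links curved membranes to actin, fell from 94.0 ± 31.9 to 9.55 ± 4.46 CPM (-3.30, SE 0.44, adjusted p = 4.79e-05). trpm4a, a calcium-activated cation channel, was at 17.1, 7.6, 11.6, 12.3 and 20.4 CPM in wild-type pools 1 to 5 and at no more than 1.04 CPM in any mutant pool (-4.93, SE 0.68, adjusted p = 7.52e-05). anpeplb, named as an aminopeptidase N-like enzyme, was at 13.6 ± 4.76 against 0.745 ± 0.219 CPM (-4.16, SE 0.37, adjusted p = 2.83e-07). Its difference was smaller in the exposed pools, at -1.97, and the change of 2.19 was itself called.

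Other genes were higher in every mutant pool. LIAS, which makes lipoic acid, the cofactor of the mitochondrial 2-oxoacid dehydrogenases, was at 21.7, 19.6, 23.1, 21.7 and 23.2 CPM in wild-type pools 1 to 5 and at 54.7, 52, 65.7, 52.1 and 55.5 CPM in mutant pools 1 to 5. This was a 2.56-fold rise with no overlap (1.36, SE 0.09, adjusted p = 6.34e-09), and the exposed pools differed by 1.07. SMIM14, a small membrane protein, was at 8.71, 13.1, 13.4, 12.9 and 11.3 CPM in wild-type pools 1 to 5 and at 39, 48, 54.2, 50.8 and 57.4 CPM in mutant pools 1 to 5 (2.07, SE 0.26, adjusted p = 2.23e-05). ptgfrna, named as a negative regulator of the prostaglandin F2 receptor, rose from 9.78 ± 4.29 to 43.0 ± 6.00 CPM (2.14, SE 0.28, adjusted p = 3.68e-05). GRIK1 (ENSDARG00000069139), a subunit of kainate-type glutamate receptors, rose from 2.95 ± 1.46 to 13.9 ± 3.85 CPM (2.24, SE 0.36, adjusted p = 0.000338).

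Wild-type pool 2 was the highest wild-type pool by a wide gap for several of these rises. casp21, a caspase, was at 0.183, 5.63, 0, 0.121 and 0.878 CPM in wild-type pools 1 to 5 and at 8.46, 19.2, 14.8, 12.7 and 15.6 CPM in mutant pools 1 to 5. The difference was 3.43 (SE 0.82, adjusted p = 0.00826) and 5.50 without pool 2. In exposed pools it was not called (0.45, adjusted p = 0.711). The zinc finger gene znf1179 was at 0.730, 9.04, 0.493, 0.484 and 0.632 CPM in wild-type pools 1 to 5 and at 25.7, 20.6, 23.1, 27.7 and 16.8 CPM in mutant pools 1 to 5, with a difference of 3.36 (SE 0.70, adjusted p = 0.00301), or 5.28 without pool 2. FAT3 (ENSDARG00000087709), a giant cadherin, was at 11.2, 69.5, 9.44, 12.2 and 7.34 CPM in wild-type pools 1 to 5 and at 104.1 to 139.3 CPM in the mutants (2.49, SE 0.65, adjusted p = 0.0142), or 3.61 without pool 2. FAM89A differed by 2.33 (SE 0.40, adjusted p = 0.000572), or 3.1 without pool 2. dnah5l, an axonemal dynein heavy chain, rose from 5.66 ± 4.52 to 26.5 ± 7.25 CPM (2.24, SE 0.49, adjusted p = 0.00459), or 2.84 without pool 2, and the exposed lines differed by -0.84, a change of -3.08 that was itself called. CEL (ENSDARG00000017490), the bile salt-activated lipase of pancreatic juice, differed by 3.23 (SE 0.90, adjusted p = 0.0200), by 4.49 without wild-type pool 2 and by 1.93 with the pancreas covariate (0.0197), and was not called without mutant pool 1 (2.79, 0.0535) or wild-type pool 1 (2.95, 0.0532).

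**Figure D4:**
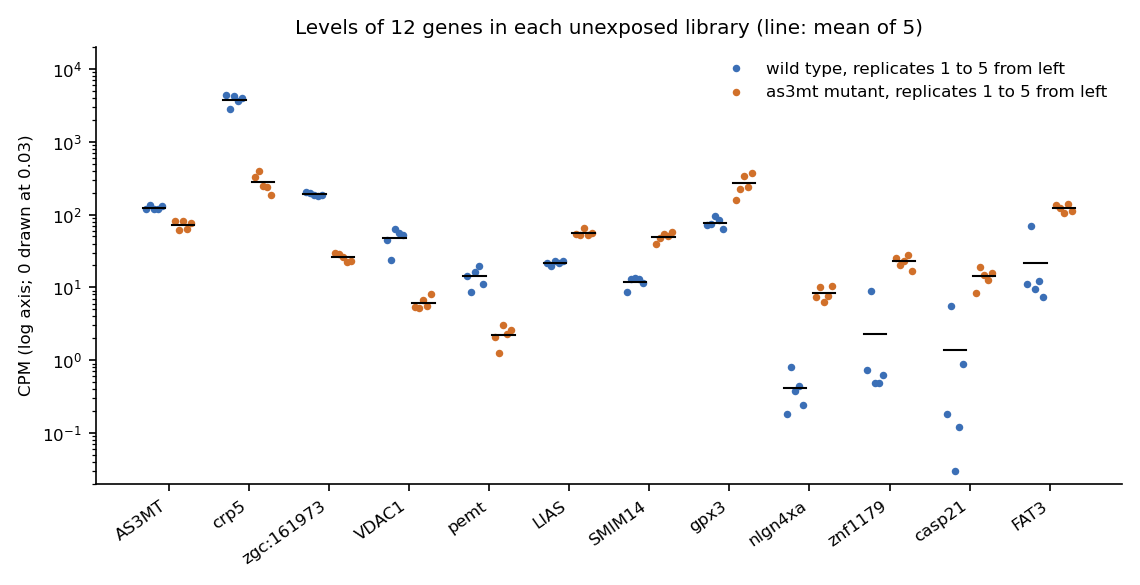
CPM on a log axis of 12 named genes in each unexposed pool (wild type blue, mutant orange, pools 1 to 5 from left), with a bar at the mean of 5. Values of 0 are drawn at 0.03. The 2 lines do not overlap for any of the 12, and wild-type pool 2 lies nearest to the mutants for casp21, znf1179 and FAT3.

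Plasma proteins are the main product of hepatocytes, and a few of their transcripts differed strongly while most were not called. Of the C-reactive proteins, pentraxins of the acute phase, 2 of the 3 tested were lower. crp5 was at 4319, 2829.8, 4216.4, 3587.5 and 3927.5 CPM in wild-type pools 1 to 5 and at 324.5, 391.5, 249.7, 235.3 and 188 CPM in mutant pools 1 to 5. It was 13.6-fold lower in the mutants with no overlap (-3.76, SE 0.28, adjusted p = 2.51e-08), and the exposed pools differed by -4.09. crp3 was at 682.2, 688.2, 369.1, 352 and 443.7 CPM in wild-type pools 1 to 5 and at 205.5, 148.3, 124.9, 109.4 and 121.2 CPM in mutant pools 1 to 5 (-1.84, SE 0.32, adjusted p = 0.000621). Its difference grew to -4.29 in the exposed pools, and the change of -2.45 was called. crp2 was not called (-0.94, SE 1.22, adjusted p = 0.669), and 3 other members had too few counts to be tested. Members of this family are near copies of each other, so counting could have split reads between them, and their single values are uncertain.

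In the acute phase and complement list, 6 of 41 tested genes were lower and none higher, with a median of -0.13 (0.04 with total counts scaling), beside 7.91% lower and a median of 0.004 over all genes. c3b.2, 1 of the fish copies of the central complement component C3, was at 2130.6, 2187.1, 2315.1, 2264.4 and 2190 CPM in wild-type pools 1 to 5 and at 1160.3, 1511.6, 1165, 1226.2 and 1534.9 CPM in mutant pools 1 to 5 (-0.75, SE 0.15, adjusted p = 0.00225). The wild-type pools hardly varied and none overlapped the mutants. Of the 8 C3 copies tested, 2 were lower. c8g, a chain of the membrane attack complex, fell from 402.2 ± 32.4 to 254.1 ± 31.4 CPM (-0.66, SE 0.15, adjusted p = 0.00482).

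Of 74 tested secreted liver proteins, 1 was higher and 7 lower, with a median of -0.10 that turned to 0.07 with total counts scaling. In all, 10.8% of the list was called, below the 13.8% of all tested genes. The count of lower genes was 3 or 4 without any of wild-type pools 1, 3, 4 and 5 or mutant pool 4, and 0 with the pancreas covariate. fabp10a, the fatty acid-binding protein used as the marker of zebrafish hepatocytes, was at 25706.5, 19776.7, 22392, 18894.9 and 19238.4 CPM in wild-type pools 1 to 5 and at 16392.8, 13398.7, 15599.3, 14180.5 and 15668.1 CPM in mutant pools 1 to 5. The lines did not overlap (-0.49, SE 0.13, adjusted p = 0.0152), but the call was lost without wild-type pool 1 (-0.42, 0.0533) and with the pancreas covariate (-0.41, 0.131). Of the apolipoproteins that carry lipid in plasma, apoea and apoeb were called lower, and neither was without wild-type pool 4. apoeb was at 41.7, 27.8, 48.7, 849.2 and 101.8 CPM in wild-type pools 1 to 5 and at 16.8, 39.5, 16.9, 10.9 and 41.2 CPM in mutant pools 1 to 5. Its difference was -3.09 (adjusted p = 0.0156), and -1.14 without that pool (adjusted p = 0.173). apoea reached 140.0 CPM in that pool and 0.385 to 6.89 CPM in the other wild-type pools, and went from -6.51 (adjusted p = 0.00466) to -2.95 without it (adjusted p = 0.0545). With the pancreas covariate neither was called (-1.70 for apoeb, 0.369; -4.27 for apoea, 0.166).

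Transcripts for making protein and for respiration were often lower in the mutants. Of 79 cytosolic ribosomal protein genes, 51 were lower and none higher, with a median of -0.29. Over all tested genes 7.91% were lower. RPLP1, of the ribosomal stalk, was at 2507.7, 1934.5, 2110.1, 1915.3 and 2257.4 CPM in wild-type pools 1 to 5 and at 1758, 1498.1, 1642.8, 1526.4 and 1612.6 CPM in mutant pools 1 to 5 (-0.42, SE 0.08, adjusted p = 0.00173). The lowest wild-type pool, pool 4, was still above the highest mutant pool. RPL37 and RPL19, structural proteins of the large subunit, fell by 0.43 and 0.39 on the log2 scale (adjusted p = 0.00217 and 0.00268). Both subunits took part, with 26 of 44 genes of the large and 25 of 33 of the small. In the exposed pools 68 of the 79 were lower. This count hung on scaling and on single pools: it was 6 with total counts scaling, 7 with the pancreas covariate, 17 in a fit of the 10 unexposed libraries alone, 23 without mutant pool 2 or wild-type pool 1, 27 without wild-type pool 5, 31 without wild-type pool 3 and 32 without mutant pool 4. Over all tested genes, 1297 were lower in the main fit and 669 with total counts scaling. With the pancreas covariate 517 were lower, and with the 10 unexposed libraries alone 905. The median of the ribosomal protein genes stayed below 0 with total counts scaling (-0.12) and with the pancreas covariate (-0.27).

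Of 79 nuclear genes for oxidative phosphorylation, 45 were lower and 3 higher, with a median of -0.38 (-0.21 with total counts scaling). The lower genes were spread over the respiratory chain: 23 of 35 for complex I, 1 of 4 for complex II, 6 of 9 for complex III, 9 of 16 for complex IV and 6 of 14 for ATP synthase. NDUFS7, the complex I subunit that carries its last iron-sulphur cluster, was at 224.4, 134.2, 218.6, 187.6 and 184 CPM in wild-type pools 1 to 5 and at 125.1, 118.6, 119.4, 97.1 and 117.3 CPM in mutant pools 1 to 5 (-0.72, SE 0.12, adjusted p = 0.000572). The lines came close in wild-type pool 2 but did not overlap. The accessory subunits NDUFB1 and NDUFB8 fell by 0.71 and 0.61 on the log2 scale (adjusted p = 0.000416 and 0.000979). COX5B (ENSDARG00000068738), a copy of a complex IV subunit, went the other way from a low level, 0.483 ± 0.339 against 2.2 ± 0.602 CPM (2.13, SE 0.37, adjusted p = 0.000759). None of the 13 genes encoded on the mitochondrial genome was called by edgeR, and their median was 0.03. The nuclear count was 25 with total counts scaling and 8 with the pancreas covariate, and lay between 30 and 53 when single pools were left out. Over all tested genes, total counts scaling called 669 lower and the pancreas covariate 517. In the exposed pools 30 of the 79 nuclear genes were lower.

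**Figure D5:**
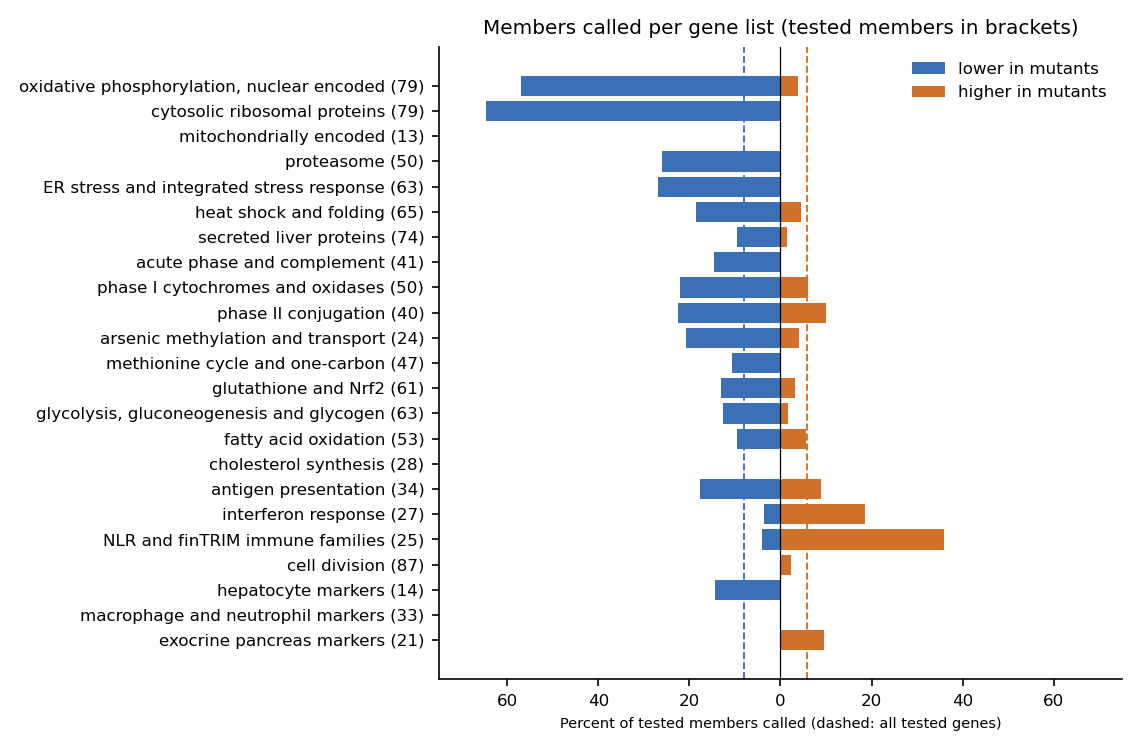
Percent of the tested members of each gene list that were called lower or higher in the unexposed mutants; dashed lines mark 7.91% lower and 5.91% higher over all tested genes. Ribosomal proteins (51 of 79) and nuclear oxidative phosphorylation genes (45 of 79) reach furthest to the lower side.

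In the main fit, genes that fold, check and degrade proteins were called lower at higher shares than the 7.91% of all tested genes. The counts depended on few pools and on scaling. With total counts scaling the medians of the heat shock and proteasome lists were only -0.02 and -0.05, where that of all tested genes was 0.175. In the list of ER stress and the integrated stress response, 17 of 63 were lower and none higher (median -0.37, or -0.20 with total counts scaling). The count fell to 5 without wild-type pool 1, whose mean log2 level of the list was 5.58 against 4.75 to 5.10 in the other wild-type pools and 4.20 to 5.05 in the mutants. It was 8 without mutant pool 4, 11 without mutant pool 1 or wild-type pool 3, 10 with total counts scaling, 6 with the 10 unexposed libraries alone and 3 with the pancreas covariate. HSPA5 (BiP), the main ER chaperone, was at 2164.1, 338.7, 772.8, 343.2 and 590.1 CPM in wild-type pools 1 to 5 and at 304.9, 296.4, 314.0, 132.7 and 470.2 CPM in mutant pools 1 to 5, so the lines overlapped. Its difference of -1.47 (SE 0.42, adjusted p = 0.0215) was -0.75 without wild-type pool 1 (adjusted p = 0.132), and was also not called without mutant pool 4 (-1.28, 0.0566), with the pancreas covariate or with the 10 unexposed libraries alone. The calls of atf6 and DDIT4 were kept without any single pool. atf6, a membrane-bound sensor of unfolded protein that becomes a transcription factor, was at 95.8, 89.3, 106.8, 93.9 and 84.9 CPM in wild-type pools 1 to 5 and at 44.1, 61.1, 42.9, 41.7 and 70.8 CPM in mutant pools 1 to 5 (-0.85, SE 0.14, adjusted p = 0.000410). Every mutant pool was below every wild-type pool. DDIT4, a stress-induced inhibitor of mTORC1, was at 21.9, 4.38, 17.8, 1.09 and 21.6 CPM in wild-type pools 1 to 5 and at 3.40, 2.63, 0.952, 0.259 and 1.29 CPM in mutant pools 1 to 5 (-3.00, SE 0.63, adjusted p = 0.00309). Here the lines overlapped, through wild-type pool 4. P4HB, an ER disulphide isomerase, and SSR1, of the translocon-associated complex, fell by 0.61 and 0.52 on the log2 scale (adjusted p = 0.00821 and 0.00839) and lost the call with the pancreas covariate.

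Of 65 heat shock and folding genes, 12 were lower and 3 higher (median -0.20, or -0.02 with total counts scaling); 7 were lower without mutant pool 4 or with the 10 unexposed libraries alone, 6 with total counts scaling (and 7 higher) and 4 with the pancreas covariate. DNAJA2 (ENSDARG00000010745), a cochaperone of Hsp70, was at 13, 10.4, 15.9, 16.2 and 16.4 CPM in wild-type pools 1 to 5 and at 6.48, 6.31, 4.55, 5.89 and 5.27 CPM in mutant pools 1 to 5. It did not overlap (-1.34, SE 0.15, adjusted p = 4.65e-06) and differed by -1.10 in exposed pools. CHORDC1 (ENSDARG00000017067), a cochaperone of Hsp90, fell from 31.9 ± 3.34 to 20.6 ± 1.71 CPM (-0.63, SE 0.09, adjusted p = 5.33e-05). DNAJA3, a mitochondrial cochaperone, differed by -0.43 (adjusted p = 0.000605), a call that total counts scaling ended (-0.25, 0.0567).

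Of 50 proteasome genes, 13 were lower and none higher (median -0.23, or -0.05 with total counts scaling): 11 of 24 for the regulatory particle, which binds ubiquitinated protein, and 2 of 15 for the proteolytic core. PSMD8, of the lid of the regulatory particle, was at 54.7, 43.7, 53.3, 42.4 and 46.4 CPM in wild-type pools 1 to 5 and at 26, 30.1, 35.5, 26.9 and 30 CPM in mutant pools 1 to 5 (-0.70, SE 0.10, adjusted p = 0.000108). The lines did not overlap. In the exposed pools no difference was called (0.05, adjusted p = 0.796), and the change of 0.74 was called (adjusted p = 0.00527). PSMC1, an ATPase of the particle's base, differed by -0.42 (adjusted p = 0.0109) and was not called with total counts scaling (-0.25), with the pancreas covariate (-0.37) or with the 10 unexposed libraries alone (-0.39). The list's lower count was 3 without wild-type pool 1, 5 without mutant pool 4, 6 without wild-type pool 3 and 7 without mutant pool 1. It was 1 under each of the same 3 other settings. In the exposed pools 11 of the 50 were higher in the mutants and none lower.

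Drug-metabolizing enzymes differed gene by gene. Of 50 phase I genes, the cytochromes P450 and oxidases that add reactive groups, 3 were higher and 11 lower (median -0.13, or 0.02 with total counts scaling; 7 lower with the pancreas covariate, and 5 higher without wild-type pool 2 or 4). In the main fit 28.0% of the phase I list was called, beside 13.8% of all tested genes. Of 34 genes of the CYP2 family tested, 3 were higher and 9 lower. cyp2x10.2 was at 6.43, 11.6, 13.1, 11.9 and 9.70 CPM in wild-type pools 1 to 5 and at 0.851, 1.19, 1.16, 2.04 and 1.04 CPM in mutant pools 1 to 5 (-3.05, SE 0.37, adjusted p = 2e-05). cyp2p7 was at 62.1, 45.8, 69.4, 57.8 and 81 CPM in wild-type pools 1 to 5 and at 18.6, 15.4, 21.2, 18.8 and 23.2 CPM in mutant pools 1 to 5 (-1.70, SE 0.20, adjusted p = 8.32e-06). Neither gene's lines overlapped, and in the exposed pools the differences were -3.09 and -1.83. cyp2k21 and cyp3c2 fell by 1.38 and 1.28 on the log2 scale (adjusted p = 0.000376 and 0.000747).

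Of 40 phase II genes, whose enzymes attach glucuronate, sulphate or other groups, 4 were higher and 9 lower (median -0.06, or 0.11 with total counts scaling; 2 higher and 5 lower with the pancreas covariate). ugt5b1, a UDP-glucuronosyltransferase, was at 109.3, 205.7, 187.2, 150.5 and 125.6 CPM in wild-type pools 1 to 5 and at 32.9, 31.7, 50.7, 37.8 and 41 CPM in mutant pools 1 to 5. It was 4.01-fold lower with no overlap (-2.0, SE 0.24, adjusted p = 1.69e-05). ugt2a5, of the same superfamily, rose from 4.94 ± 0.395 to 12.6 ± 2.05 CPM (1.35, SE 0.20, adjusted p = 0.000167). ugt5c2 fell from 1.08 ± 0.514 to 0.108 ± 0.102 CPM (-3.30, SE 0.50, adjusted p = 0.000204), or by 3.94 without mutant pool 5. Of the 25 genes of the family tested, 1 was higher and 7 lower. In the main fit 32.5% of the phase II list was called, beside 13.8% of all tested genes. sult1st1, a cytosolic sulphotransferase, fell from 111.5 ± 42.3 to 44.9 ± 15.9 CPM (-1.31, SE 0.27, adjusted p = 0.00245), and its call was lost with the pancreas covariate. These are families of close copies, so reads could have been split or shifted between members.

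In the list of arsenic methylation and transport, 1 of 24 genes was higher and 5 were lower, as3mt among them (median 0.12). AQP11, an aquaporin of intracellular membranes, was at 136.5, 161.3, 197.3, 183.7 and 165.7 CPM in wild-type pools 1 to 5 and at 70.9, 106.2, 105.1, 95.9 and 122.2 CPM in mutant pools 1 to 5 (-0.76, SE 0.17, adjusted p = 0.00541). TXN, thioredoxin, which supplies electrons for the reduction of arsenic species, fell from 159.6 ± 14.3 to 120.4 ± 14.5 CPM (-0.41, SE 0.09, adjusted p = 0.00606). Both calls were lost with the pancreas covariate. The lower count was 3 without mutant pool 2 or wild-type pool 3 or with total counts scaling, 2 without mutant pool 4 and 0 with the pancreas covariate.

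Of 47 genes of the methionine cycle and one-carbon metabolism, which make and use S-adenosylmethionine, 5 were lower and none higher (median -0.14; with total counts scaling, 4 higher, 3 lower and a median of 0.04; with the pancreas covariate, 2 lower). The called share was 10.6%, below the 13.8% of all tested genes. pemt, described above, was among the 5. GATM, the amidinotransferase that makes the precursor of creatine, was at 4630.8, 3547.4, 6043.6, 5953.9 and 6264.6 CPM in wild-type pools 1 to 5 and at 1916, 2455.6, 2347.3, 1798.6 and 2835.6 CPM in mutant pools 1 to 5 (-1.22, SE 0.21, adjusted p = 0.000611). The mutants were 2.33-fold lower without overlap, and the exposed pools differed by -1.74. CSAD, which makes the precursor of taurine, fell from 130.1 ± 39.2 to 68.5 ± 18.1 CPM (-0.93, SE 0.24, adjusted p = 0.0143). Its difference was larger in the exposed pools (-2.49, change -1.56, adjusted p = 0.0153). DLD, the dehydrogenase that reoxidizes lipoic acid, differed by -0.30 (adjusted p = 0.0132). The calls of CSAD and DLD were lost with the pancreas covariate, and that of DLD also with total counts scaling.

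Of 61 glutathione and Nrf2 pathway genes, 2 were higher and 8 lower (median -0.08; with total counts scaling, 6 higher, 5 lower and a median of 0.08). gpx3, the secreted glutathione peroxidase, was at 72.7, 73.8, 94.4, 82.9 and 63.9 CPM in wild-type pools 1 to 5 and at 159.9, 227.7, 343.3, 238.8 and 375.6 CPM in mutant pools 1 to 5. It was 3.47-fold higher with no overlap (1.79, SE 0.24, adjusted p = 5.52e-05), and 1.49 on the log2 scale in the exposed pools. keap1a, the adaptor that targets Nrf2 for degradation, was at 69.6, 64.2, 74.5, 78.4 and 79.7 CPM in wild-type pools 1 to 5 and at 50.7, 44.9, 52, 51.7 and 49.5 CPM in mutant pools 1 to 5 (-0.56, SE 0.10, adjusted p = 0.000749). No difference was called in the exposed pools (-0.08, adjusted p = 0.600), and the change missed the threshold (0.47, adjusted p = 0.0567). TKT, a transketolase of the pentose phosphate pathway, had 207 counts in the mutants and 2 in the wild type, 90.1-fold apart (24.6 to 749.0, counting interval). The lower count of the list was 3 without mutant pool 4, 4 without wild-type pool 3, 5 without mutant pool 3, mutant pool 5 or wild-type pool 1, and 2 with the pancreas covariate. In the main fit 16.4% of the list was called, near the 13.8% of all tested genes.

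Genes of fatty acid and triglyceride synthesis and of fatty acid oxidation were called at 14.0% and 15.1%, near the 13.8% of all tested genes. Of 43 genes of fatty acid and triglyceride synthesis, 2 were higher and 4 lower, and of 53 of fatty acid oxidation, 3 were higher and 5 lower, with medians of -0.13 and -0.07 that turned to 0.04 and 0.10 with total counts scaling. That scaling called 11 oxidation genes higher, and with the pancreas covariate 2 genes of each list were lower. DGAT1 (ENSDARG00000103503), which completes triglycerides, was at 7.98, 8.22, 7.21, 5.73 and 7.41 CPM in wild-type pools 1 to 5 and at 3.03, 3.43, 3.14, 3.76 and 3.58 CPM in mutant pools 1 to 5 (-1.11, SE 0.25, adjusted p = 0.00574). Its difference was larger in the exposed pools (-2.79), with a change of -1.69 that was called. ELOVL1 (ENSDARG00000103735), an elongase of very long fatty acids, fell from 38.1 ± 7.41 to 15.9 ± 3.41 CPM (-1.26, SE 0.25, adjusted p = 0.00188). ACSL1, which activates long-chain fatty acids, rose from 2.26 ± 0.544 to 4.69 ± 0.860 CPM (1.05, SE 0.19, adjusted p = 0.00114). mgll, the monoglyceride lipase, rose by 0.66 (adjusted p = 0.00286). ETFB, which passes electrons from fatty acid oxidation to the respiratory chain, and BDH1, of ketone body metabolism, fell by 0.42 and 0.53 on the log2 scale (adjusted p = 0.00289 and 0.00581). PNPLA2, the lipase that starts triglyceride breakdown, rose from 58.4 ± 29.8 to 152.2 ± 63.2 CPM with overlapping pools (1.38, SE 0.33, adjusted p = 0.00777). That call was lost with the pancreas covariate, and the exposed lines differed by -0.39, a change of -1.78 that was called.

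None of the 28 cholesterol synthesis genes was called by edgeR, 2 were lower by DESeq2, and the median was -0.47. Without wild-type pool 2, 5 were called lower and 2 higher by edgeR, and with the pancreas covariate the median was 0.00. Of 22 bile acid genes 4 were lower and none higher (median -0.27). The called share was 18.2%, near the 13.8% of all tested genes. The count of lower genes was 2 or less without any of mutant pools 1, 3 and 4 and wild-type pools 1 and 3, and 0 with the pancreas covariate. CYP7B1, of the alternative bile acid pathway, was among the 4 (-0.79, SE 0.23, adjusted p = 0.0237). Its call was lost without mutant pool 2 (-0.75, 0.0547), mutant pool 4 (-0.73, 0.0611) or wild-type pool 3 (-0.72, 0.0654), with total counts scaling (-0.63, 0.0524) and with the pancreas covariate (-0.65, 0.167).

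In glycolysis, gluconeogenesis and glycogen metabolism 8 of 63 genes were lower and 1 higher (median -0.08, or 0.08 with total counts scaling; 4 lower with the pancreas covariate). GPI (ENSDARG00000012987), glucose-6-phosphate isomerase, fell from 673.8 ± 48.4 to 450.1 ± 13.3 CPM (-0.58, SE 0.08, adjusted p = 5.45e-05). A second copy, GPI (ENSDARG00000103826), was at 2.65, 2.55, 5.42, 9.52 and 12.9 CPM in wild-type pools 1 to 5 and at 0.520, 0.289, 0.372, 0.374 and 0.123 CPM in mutant pools 1 to 5 (-4.33, SE 0.53, adjusted p = 1.85e-05). Reads could be split between the copies. Neither copy differed by a called amount in the exposed pools (-0.04 and -1.30), and both changes were called (0.54, adjusted p = 0.00874, and 3.03, 0.0209). UGP2 (ENSDARG00000008200), which makes UDP-glucose for glycogen, fell by 0.68 (adjusted p = 0.00411), a call lost with the pancreas covariate. The called share of the whole list, 14.3%, was near the 13.8% of all tested genes.

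Immune genes differed in both directions, most of them from multigene families. Of 27 interferon response genes 5 were higher and 1 lower (median 0.14; 1 higher with the pancreas covariate). tlr3, the receptor for double-stranded RNA, was at 1.6, 2.79, 2.12, 2.22 and 1.83 CPM in wild-type pools 1 to 5 and at 0.473, 0.144, 0.248, 0.546 and 0.398 CPM in mutant pools 1 to 5 (-2.52, SE 0.37, adjusted p = 0.000120). eif2ak2 (PKR), the kinase that stops translation upon double-stranded RNA, rose from 0.749 ± 0.278 to 2.08 ± 0.445 CPM (1.48, SE 0.28, adjusted p = 0.00126). ifit8, of the interferon-induced tetratricopeptide family, had 45 counts in the mutants and 3 in the wild type, 13.1-fold apart (4.19 to 65.7); its call was lost with the pancreas covariate. In the main fit 22.2% of the interferon response list was called, beside 13.8% of all tested genes. Of the 5 ifi27 genes tested, 3 were lower and none higher, ifi27.5 by far the most. These 3 are not among the 27 genes of the list.

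Of 34 antigen presentation genes, 3 were higher and 6 lower (median 0.22; 2 higher and 4 lower with the pancreas covariate). In the main fit 26.5% of the list was called, beside 13.8% of all tested genes. The MHC class I Z genes, which differ in number between zebrafish haplotypes, accounted for most of these calls. All 7 that were tested were called, 2 higher and 5 lower, and the lines did not overlap for any of them. mhc1zba was at 24.7, 21.9, 17.2, 17.3 and 21.2 CPM in wild-type pools 1 to 5 and at 58.3, 54.2, 41.1, 43.5 and 58 CPM in mutant pools 1 to 5 (1.32, SE 0.20, adjusted p = 0.000165). mhc1zja rose from 0.0880 ± 0.0945 to 0.705 ± 0.294 CPM (3.01, SE 0.56, adjusted p = 0.00111). mhc1zka had 117 counts in the wild type and 1 in the mutants (134.4-fold, counting interval 23.7 to 5352.7), and mhc1zca had 61 and 0 (at least 23.4-fold lower). mhc1zea, mhc1zda and mhc1zfa fell by 1.04, 1.18 and 3.51 on the log2 scale. Divergent haplotypes are counted against a single reference, so these values are uncertain. b2m, annotated as the light chain of class I molecules, rose from 0.762 ± 0.355 to 5.69 ± 2.34 CPM with no overlap (2.92, SE 0.71, adjusted p = 0.00868), a call lost with the pancreas covariate (2.52, 0.0785).

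Of 25 genes of the NLR and finTRIM families, which are expanded in fish and tied to innate immunity, 9 were higher and 1 lower (median 0.19; 4 higher with the pancreas covariate). ftr02 was at 0.456, 0.337, 0.190, 0.525 and 0.246 CPM in wild-type pools 1 to 5 and at 1.70, 2.56, 1.74, 1.98 and 1.35 CPM in mutant pools 1 to 5 (2.41, SE 0.27, adjusted p = 7.83e-06). Its lines differed by only 0.31 in the exposed pools, and the change of -2.10 was called. ftr19 and ftr58 were higher by 3.28 and 3.29 (adjusted p = 0.000634 and 0.00109), and ftr58 by 4.16 without wild-type pool 2. NLRC3 had 90 counts in the wild type and none in the mutants (at least 34.5-fold). Over all 33 finTRIM genes tested, 8 were higher and 1 lower, and over 12 NLR genes 1 and 1. Copies within these families can share reads.

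Among genes of liver growth and hormone signalling, 3 of 37 were higher and 1 lower (median 0.12; 5 higher without wild-type pool 2). THRB, a thyroid hormone receptor, was at 1.78, 3.22, 0.683, 1.49 and 1.65 CPM in wild-type pools 1 to 5 and at 6.05, 6.09, 5.71, 6.64 and 7.35 CPM in mutant pools 1 to 5 (1.86, SE 0.38, adjusted p = 0.00244). IGFBP5 (ENSDARG00000025348), which binds insulin-like growth factors, rose from 3.81 ± 1.21 to 7.82 ± 1.22 CPM (1.03, SE 0.18, adjusted p = 0.000811). In the p53 and DNA damage list, 4 of 47 were higher and 3 lower (median 0.09; 2 higher without mutant pool 2, and 1 with the pancreas covariate). gtse1, which binds microtubules and p53, rose from 6.21 ± 2.29 to 14.6 ± 3.98 CPM (1.24, SE 0.24, adjusted p = 0.00189), and GADD45B (ENSDARG00000013576), a stress-induced growth arrest gene, fell from 11.9 ± 2.95 to 4.66 ± 2.33 CPM (-1.36, SE 0.29, adjusted p = 0.00380). Of 87 cell division genes 2 were higher and none lower (median 0.23), where 5.91% of all tested genes were higher. The higher count was 8 with total counts scaling, 5 by DESeq2 or without mutant pool 5, and 4 without wild-type pool 2. It was 1 with the pancreas covariate or without mutant pool 3 or wild-type pool 5, and 0 without mutant pool 2 or wild-type pool 1. Of 39 circadian clock genes 2 were higher and 1 lower (median 0.27), and of 38 liver transcription factors 2 were higher and 2 lower (median 0.03). Called shares were 10.8% for growth and hormone signalling, 14.9% for the p53 list, 7.69% for clock genes and 10.5% for liver transcription factors. Over all tested genes the share was 13.8%. The clock genes called higher numbered 5 without wild-type pool 4, 3 with total counts scaling or by DESeq2, 1 without any of mutant pools 1 to 3 and wild-type pools 1, 3 and 5, and 0 with the 10 unexposed libraries alone. The count of clock genes called lower was 0 without 6 of the 10 pools and with total counts scaling. The transcription factors called higher numbered 4 with total counts scaling, 1 without any of mutant pools 2, 3 and 5 and wild-type pool 4, and 0 without mutant pool 4, without any of wild-type pools 1, 3 and 5, or with the 10 unexposed libraries alone. Those called lower numbered 1 to 3 without single pools, and 1 with total counts scaling or with the 10 unexposed libraries alone. With the pancreas covariate, no gene of either list was called.

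In metal handling, 2 of 39 genes were higher and 5 lower (median -0.05; with total counts scaling, 6 higher, 2 lower and a median of 0.12). slc39a6, a zinc importer, was at 15.4, 7.12, 12.2, 8.51 and 8.50 CPM in wild-type pools 1 to 5 and at 4.35, 5.34, 4.84, 4.63 and 5.15 CPM in mutant pools 1 to 5 (-1.09, SE 0.19, adjusted p = 0.000577). slc39a4, another zinc importer, rose from 0.0835 ± 0.121 to 0.642 ± 0.398 CPM (2.99, SE 0.68, adjusted p = 0.00567), or by 4.25 without wild-type pool 2, and its call was lost with the pancreas covariate (2.50, 0.0512). The lower count was 3 without mutant pool 3, mutant pool 4 or wild-type pool 3. In the autophagy and lysosome list, 2 of 63 were higher and 6 lower (median -0.01; with total counts scaling, 6 higher, 1 lower and a median of 0.16; with the pancreas covariate, 2 lower). PSAP, the precursor of the saposins that help degrade sphingolipids, was at 504.2, 477.2, 535.8, 515.5 and 514.9 CPM in wild-type pools 1 to 5 and at 380.6, 356.4, 314.1, 297.5 and 373.2 CPM in mutant pools 1 to 5 (-0.57, SE 0.10, adjusted p = 0.00105). MCOLN1 (ENSDARG00000002285), a cation channel of lysosomes, rose from 9.94 ± 3.47 to 18.6 ± 3.12 CPM (0.91, SE 0.21, adjusted p = 0.00598). Neither differed by a called amount in the exposed pools (-0.11 and 0.10). Called shares were 17.9% for metal handling and 12.7% for autophagy and lysosome, where 13.8% of all tested genes were called.

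Of 17 biliary markers 1 was higher and 3 lower (median -0.37). With total counts scaling 3 were higher and 3 lower. With the pancreas covariate or the 10 unexposed libraries alone, none was higher and 1 was lower. The higher call was also lost without any of mutant pools 2 to 5 and wild-type pools 1, 3 and 5. ANXA4, an annexin of biliary cells, was at 1035.1, 978.2, 1012.1, 986.1 and 1113.3 CPM in wild-type pools 1 to 5 and at 684.4, 685.2, 600.9, 560.9 and 721 CPM in mutant pools 1 to 5 (-0.66, SE 0.10, adjusted p = 0.000278). Of 24 endothelial markers 2 were higher and 1 lower (summed 312.4 to 440.1 CPM in the wild type and 352.2 to 415.5 in the mutants). Of 37 stellate cell and matrix markers 3 were higher and none lower. The called share was 8.11% for these, 12.5% for endothelial and 23.5% for biliary markers, where 13.8% of all tested genes were called. COL6A2, a chain of type VI collagen, rose from 11.3 ± 1.79 to 22.3 ± 4.23 CPM (0.98, SE 0.21, adjusted p = 0.00374). In the exposed pools it differed by -0.51, and the change of -1.48 was called. Of 14 intestine markers 2 were lower, among them chia.3, a chitinase of the gut (-3.04, SE 0.61, adjusted p = 0.00236, or -3.74 without mutant pool 1). Of 11 yolk and swim bladder markers 2 were higher, with anxa5b, an annexin, at 3.32 ± 0.325 against 9.12 ± 1.98 CPM (1.46, SE 0.16, adjusted p = 4.81e-06). None of 33 macrophage and neutrophil markers was called by edgeR, although 5 were lower without mutant pool 2. Their mean log2 CPM was only 0.46 to 1.99 in wild-type pools and 0.17 to 2.05 in mutant pools. The summed level, 8192.5 to 10193.9 CPM in the wild type and 7681.6 to 8627.7 in the mutants, therefore rests on the more abundant members. Of the 14 hepatocyte markers 2 were lower (median -0.19), and 12 were in the exposed pools. In unexposed pools 1 was lower with total counts scaling (median -0.01). None was lower with the pancreas covariate or without wild-type pool 1. Intestine and hepatocyte markers were each called at 14.3%, and yolk and swim bladder markers at 18.2%.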

How the data were processed

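The authors deposited 1 table of raw counts per library, whole numbers of reads for each of 32105 Ensembl gene identifiers. Per the labels' protocols, poly(A) RNA of RIN above 7 was reverse transcribed from 100 ng of total RNA, amplified for 12 cycles and sequenced on a NextSeq550. FastQC 0.11.5, Trimmomatic 0.36 and build GRCz10 are named in the submitters' processing notes. The aligner, counter and annotation are not given in the sources used here. Both a TruSeq V2 and a directional kit are named, so reads from overlapping antisense genes may not be told apart. Symbols came from a naming table for 26269 identifiers (81.8%), and some are spelled there in capitals. Gene order came from RefSeq's GRCz12tu annotation, of which no coordinates were used.

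Counts of all 20 libraries were fitted with edgeR 4.0.16 (R 4.3.3, limma 3.58.1): filterByExpr, TMM factors, 4 group means, quasi-likelihood F test, 2-sided, Benjamini-Hochberg adjustment over 16389 genes, called under 0.05. All adjusted p-values are from this test unless DESeq2 1.42.0 is named. The common biological coefficient of variation was 0.282. CPM per pool uses TMM-scaled totals. Means are given ± SD over 5 pools. Tables used Python 3.11.15, pandas 2.3.3, numpy 2.4.6 and scipy 1.17.1, figures matplotlib 3.10.9, and the fit was tested on simulated counts.

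The comparison, the 42 gene lists and the rule for named genes were chosen with earlier results of these data known, so a list's count is not independent support. The rule took as3mt; the 10 largest called differences each way among genes with a symbol, a group mean of at least 10 CPM and no overlap; the 6 smallest adjusted p; up to 4 called members of each list; called neighbours of as3mt; and the 8 most abundant near-silent genes each way. It gave 155 called genes, of which 41 lost the call when 1 library was left out; these are mostly given by number only. HSPA5 and further members of the CRP, VDAC and MHC class I families were named after their values were seen. Alternatives were DESeq2 and its size factors, total counts scaling, 2 other filters, robust dispersions, the 10 unexposed libraries alone, a replicate block and leaving out each library; the pancreas covariate was added after seeing the data. No set test was run. Some genes that met the rule are not reported here.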

Additional observations from a re-analysis of the deposited data

Results flagged for a closer look

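Within each group of 5 pools, a highest or lowest pool with a wide gap to the nearest other was looked for. This was done among genes with at least 50 counts in the group. Chance gives such a gap in about 1 in 20 groups, and it was found in 19 of the 310 gene groups and 1 of the 24 list groups. The genes were mostly chosen for being called or for lack of overlap, so these counts cannot be set against chance. The pools found were wild-type pool 2 for casp21 (5.63 CPM), znf1179 (9.04 CPM), FAT3 (69.5 CPM), FAM89A (6.49 CPM), dnah5l (13.5 CPM) and ptgfrna (17.2 CPM), in each case the wild-type pool nearest to the mutants. Wild-type pool 4 stood out for apoea (140.0 CPM), apoeb (849.2 CPM) and apoa4a (7.1 CPM), and wild-type pool 1 for HSPA5 (2164.1 CPM) and mhc1zka (1.92 CPM). Mutant pool 1 stood out for the digestive enzymes ctrb.2 (83.7 CPM) and ctrl (66.1 CPM) and for the haemoglobin gene hbae5 (1.18 CPM). Mutant pool 4 stood out for cyp2x10.2 (2.04 CPM), NDUFS7 (97.1 CPM) and ESR2 (ENSDARG00000034181, 10.1 CPM), mutant pool 3 for LIAS (65.7 CPM) and mutant pool 5 for col6a1 (191.3 CPM). Among list means, mutant pool 5 stood apart for phase I genes (mean log2 CPM of 4.52).

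For 21 named genes the difference between lines itself differed between exposed and unexposed pools in edgeR's test, as the log2 difference at 1 mM iAs minus that at 0 mM. It rose for anpeplb (2.19), PSMD8 (0.74), PSMC1 (0.55), SYN2 (2.09) and both GPI copies (3.03 for ENSDARG00000103826 and 0.54 for ENSDARG00000012987), all of them lower in the unexposed mutants. The fitted value for mhc1zca (5.56) depends on the prior count, since no count was found in the unexposed mutants. It fell for genes higher in the unexposed mutants, namely dnah5l (-3.08), ptgfrna (-1.36), PNPLA2 (-1.78), gtse1 (-1.34), ftr02 (-2.1), stab1 (-1.23), COL6A2 (-1.48), GAD1 (ENSDARG00000093411, -1.64) and anxa5b (-0.96). It also fell for genes already lower in the unexposed mutants, namely CSAD (-1.56), DGAT1 (ENSDARG00000103503, -1.69), crp3 (-2.45), UGP2 (ENSDARG00000008200, -0.92) and BHLHE41 (-1.97). The unexposed difference of BHLHE41 (-0.68, adjusted p = 0.0978) and of GAD1 (1.3, adjusted p = 0.0566) was not called with the pancreas covariate. That of BHLHE41 was also not called with total counts scaling (-0.42, adjusted p = 0.15). Nor was it called without any of mutant pools 1, 2, 4 and 5 and wild-type pools 1, 3 and 5.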

How the results depend on the processing

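Of 2988 values of the 155 named genes under other settings, none reversed and 314 fell short of the threshold; 89 genes kept their call in every setting and 101 in every setting other than the pancreas covariate. The count of genes higher in the mutants was 430 with that covariate, 521 where a stricter filter kept only means of 10 CPM or more, 1917 with total counts scaling, and 700 to 1263 when single libraries were left out. The count of lower genes was 517, 586, 669 and 932 to 1539 in the same order, with the highest of both without wild-type pool 2. The as3mt difference was -0.70 with the covariate (adjusted p = 0.118) and lay between -0.83 and -0.73 without single libraries. Ribosomal protein genes lower numbered 17 with the 10 unexposed libraries alone, 7 with the covariate, 24 with no filter, 6 with total counts scaling and 23 to 63 without single libraries; oxidative phosphorylation genes lower numbered 8 with the covariate, 25 with total counts scaling and 30 to 53 without single libraries. Near-silent genes numbered 3 at under 1 and at least 10 CPM, and 13 to 20 without single libraries, the highest without wild-type pool 2. The share of called as3mt neighbours was 13.6% with the covariate and 22.7% to 40.9% without single libraries. With the covariate 947 of all tested genes were called, against 2265 in the main fit. Of the differences between lines, 415 changed with exposure by DESeq2, which made 2789 calls between the unexposed lines, against 220 by edgeR, which made 2265. The share with the same direction in exposed pools was 83.2% to 88.9% without single libraries. The cause of these shifts was not tested, except that fewer genes enter the stricter filter. Of 832 list medians, 54 moved by more than the SD between pools.

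Both lines have replicates numbered 1 to 5. Between the lines, the deviations of same-numbered pools from their line's mean correlated at 0.02, 0.05, 0.15, 0.20 and 0.08. Only replicates 3 and 4 correlated best with their own number, so the numbers were not taken to pair mutant with wild-type pools. Whether they pair unexposed with exposed pools of the same line was not tested. Wild-type pool 2, which stood out among unexposed pools for FAT3, znf1179, FAM89A, dnah5l and ptgfrna, was also the highest exposed wild-type pool for each. That was not so for pool 2 and casp21, for pool 4 and apoea, apoeb or apoa4a, or for pool 1 and mhc1zka. The exposed pools may therefore not be independent of the unexposed ones. The tests of change with exposure took these pools as unpaired. With a replicate block, 1156 genes were higher and 1439 lower over 20 libraries, and 1057 and 1162 over the 10 unexposed ones. In the fit of 20 libraries, with 2595 calls in all, 310 differences between lines changed with exposure. The block joined pools of the same number from both lines, so it did not pair pools within a line.

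The depth of at least 27505029 counts per library leaves genes under about 1 CPM with few counts, and the fold of such genes carries a wide counting interval.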

Other observations

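Called genes lay next to each other in places. Of the tested genes 11720 (71.5%) could be placed in the gene order, with 1599 of the calls, and 17 runs held at least 4 consecutive tested genes that were all called. The longest was 6 genes, in which ugt5b4 (-0.89), ugt5b3 (-1.05), ugt5b2 (-0.98) and ugt5b1 (-2.0), close copies that can share reads, stood beside mad1l1 and PMM2, and all 6 were lower in the mutants. No test was made of these runs.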
